A study of Sus scrofa with 5 samples.

Results

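Of the 18696 genomic loci to which transcripts of miniature pig molar germs were assigned, 430 (2.30%) carried 8 or more assembled transcripts each. These loci were chosen by counting the distinct transcripts listed at each locus, without use of any expression value, and they held 4091 of all 45614 transcripts (8.97%). The transcripts themselves were assembled from the reads of these same stages, so the count per locus is not independent of expression. The median summed expression at embryonic day 50 was higher at these loci than over all loci, with values given below. A locus is an interval on a scaffold of the WZSP genome build and is given here by its scaffold, start and end, counted from 1. Additional molar germs, together with the adjoining dental lamina, had been taken from the mandibles of wild type miniature pig embryos at embryonic days 50, 60 and 70 (E50, E60 and E70), and RNA was pooled within each stage. The labels list 1, 1 and 3 samples for E50, E60 and E70, whereas the table of the authors gives 1 value per transcript and stage. That value is the FPKM, which counts fragments per kilobase of exon and scales them to the number of fragments mapped in the library. With 1 value per stage there is no spread over animals, no difference below has a replicate check, and no test was made. Whether the E70 value combines the 3 samples is not known from the labels. The paper's supplementary methods state that mapped reads of replicates were merged before assembly and quantification, without naming these samples.

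These molars follow no deciduous teeth and arise in order from front to back as the dental lamina lengthens. A germ passes through bud, cap and bell shapes. The paper reports that the next molar starts at E60, when the molar before it has reached the bell shape. A locus yields several transcripts when its gene uses alternative promoters, joins its exons in different combinations or ends at alternative polyadenylation sites, and an assembler can add partial models or join neighbouring genes. In tooth germs, splice forms are well known for amelogenin of the enamel matrix and for fibroblast growth factor receptors, whose epithelial and mesenchymal forms differ by an exon. Reads that fit several models of a locus are divided among them by Cufflinks, so that values within a locus depend on each other. The table does not pair its transcripts with gene symbols, and marker genes of the dental epithelium and mesenchyme were not analysed here.

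The E60 library stood apart from the other stages over the whole table. Summed over all transcripts, its FPKM came to 6.97% of the E50 total and 3.50% of the E70 total. At the 430 loci alone the FPKM totalled 4.46e+06, 279537 and 4.34e+06 at E50, E60 and E70. Totals as large as those of E50 and E70 exceed what the definition allows for transcripts of the mean lengths that the paper reports. The E50 and E70 values can therefore be inflated estimates, and sums, shares and leaders there carry this limit. Its cause was not tested. In the E60 library 82.3% of all transcripts were above 0, against 45.4% at E50 and 42.5% at E70. The transcripts of the 430 loci followed the same order, with 2135 (52.2%) above 0 at E50, 3378 (82.6%) at E60 and 2091 (51.1%) for E70. Each comparison with E60 rests on this library and shares its value, and the stage and the library cannot be told apart. In pooled tissue, fewer cells of a type and less RNA per cell cannot be told apart either.

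The 430 loci lay on 263 scaffolds, at most 8 of them on the same scaffold (scaffold 332). They spanned a median of 103860 bp (5394 to 1025294 bp), against 42653 bp for loci of 4 to 7 transcripts. The number of transcripts per locus ran from 8 to 23 with a median of 9, and 284 loci had 8 or 9 while 52 had 12 or more. The median number above 0 per locus was 5, 8 and 5 at E50, E60 and E70. All transcripts of the locus were above 0 at 2, 98 and 3 loci.

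The patterns of detection of single transcripts are given beside those of the whole table. Of the 4091 transcripts, 1314 (32.1%, against 35.1% of all transcripts) were above 0 at E60 only and 1156 (28.3%, against 24.8%) at all 3 stages. A further 477 (11.7%, against 12.3%) were above 0 at E50 and E60, and 431 (10.5%, against 10.1%) at E60 and E70. The pattern of E50 and E70 without E60 held 434 transcripts (10.6%), against 6.28% of all. Few were above 0 at E50 only (68, or 1.66%, against 2.07%) or at E70 only (70, or 1.71%, against 1.39%). Listed at 0 throughout were 141 (3.45%), against 7.97% of all transcripts and 3.72% of those at loci of 4 to 7. A value of 0 is given here as listed at 0, since it can also stand for an estimate that failed, and no fold is given against it.

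The leading transcript of a locus, the transcript with its highest FPKM at a stage, was usually a different one at E60. Between E50 and E60 the leader differed at 382 of the 427 loci with FPKM above 0 at both stages (89.5%, Wilson 95% confidence interval 86.2 to 92.0%), against 70.1% of all loci of 2 or more transcripts. Between E60 and E70 it differed at 375 of 427 loci (87.8%, 84.4 to 90.6%), against 69.3%. Between E50 and E70 it differed at only 189 of 425 loci (44.5%, 39.8 to 49.2%), against 29.6%. These intervals cover counting over loci only, not the variation between animals. Where the leader had at least 2 times the FPKM of the next transcript, it differed between E50 and E70 at 29.3% of 242 loci. Among transcripts above 0 at all stages, it differed between E50 and E70 at 26.5% of 328 loci.

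Over the 3 stages, 23 of 425 loci kept the same leader throughout (5.41%, 3.63 to 7.99%), against 20.0% of all loci of 2 or more transcripts and 11.4% of loci of 4 to 7. The kept share was 9.24% of 119 loci where the leader had at least 2 times the FPKM of the next transcript. Among transcripts above 0 at all stages it was 29.9% of 328 loci. The most frequent course, seen at 213 loci (50.1%), was a leader shared by E50 and E70 with another transcript leading at E60, and its share was 50.4% at all loci of 2 or more transcripts and 55.2% at loci of 4 to 7. At 138 loci (32.5%) each stage had its own leader, which loci of 2 transcripts cannot show. The share was 18.0% at loci of 4 to 7 and 27.7% at loci of exactly 8, and at loci of exactly 7 it was 70 of 280. The leader was shared by E50 and E60 alone at 22 loci and by E60 and E70 alone at 29.

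A locus with more transcripts has more candidates for the lead, and the share of differing leaders was higher in these loci than in the classes of fewer transcripts. Between E50 and E60 the leader differed at 60.8% of loci of 2 or 3 transcripts, 80.6% of loci of 4 to 7 and 89.5% of those of 8 or more. Between E50 and E70 the same classes had 24.7%, 33.4% and 44.5%. Within the 430 loci the order was not strict. Loci of 9, of 10 or 11 and of 12 or more had 86.5%, 95.7% and 92.3% between E50 and E60, and 39.8%, 47.3% and 51.9% between E50 and E70. Among loci with sums of at least 10 FPKM at every stage, the leader differed at 88.9%, 87.2% and 39.9% of the 351 loci of 8 or more in the 3 comparisons (E50 and E60, E60 and E70, E50 and E70) and at 83.9%, 82.4% and 22.5% of the 1685 loci of 4 to 7. No step was seen at the threshold of 8. Loci of exactly 8 transcripts, just inside it, numbered 179. Among those compared, the leader differed in 87.0% of 177 (E50 and E60), 83.7% of 178 (E60 and E70) and 43.5% of 177 (E50 and E70). Loci of 7, just outside, numbered 297, and the leader differed in 84.3% of 287 compared, 84.3% of 286 and 40.4% of 280. Loci of 8 and of 7 were also close in the leader's median share, with 80.5%, 41.9% and 84.5% over the stages at loci of 8 and 85.7%, 43.8% and 87.5% at loci of 7. Their median summed FPKM differed more, with 184, 63.2 and 363 over the stages at loci of 8 and 107, 57.5 and 198 at loci of 7.

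The leader chosen at a stage has its highest rank there by that choice, so only its values at the other stages inform. The E50 leaders of the 425 loci with FPKM above 0 at all 3 stages had medians of 166, 0 and 135 FPKM over the stages in order. At E60, 213 of them were listed at 0, and at E70 only 56. Their share of the locus was higher at E70 than at E60 at 336 loci and lower at 66. Of the 3089 such leaders at loci of 4 to 7 transcripts, 1039 were listed at 0 at E60 and 492 at E70, and the share was higher at E70 than at E60 at 2349 loci and lower at 620. The E70 leaders behaved in the same way when read backwards. Their medians over the stages were 62.9, 0 and 351 FPKM, and 216 were listed at 0 at E60 against 79 at E50. The share of the E70 leader was higher at E50 than at E60 at 329 loci and lower at 69, and at loci of 4 to 7 the corresponding numbers were 2292 and 682.

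The leaders of E60 had a lower median FPKM at their own stage, 26.8. Of these 425 transcripts, 218 were listed at 0 at E50, 214 at E70 and 151 at both, against 1568, 1540 and 1098 of the 3089 at loci of 4 to 7. A failed fit or too little data was recorded by Cuffdiff for 42 of the E50 leaders, 38 of the E60 leaders and 41 of the E70 leaders. Of the 213 E50 leaders listed at 0 at E60, 30 carried such a status, as did 17 of the 216 E70 leaders listed at 0 there.

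Expression was divided more evenly within a locus at E60. The leader took a median of 75.5% of the summed FPKM of its locus at E50, with quartiles of 54.7 and 93.5%. The E60 median was 40.5% (31.8 and 56.1%), and the E70 median 82.3% (60.8 and 96.3%). The numbers of loci at which the leader held at least 90% were 138, 17 and 163 over the stages, and those at which it held under 50% were 70, 292 and 45. Thus a leader of at least 90% was more frequent at E50 and E70 than at E60. Such leaders were found at 2008, 201 and 2096 of the 3668 loci of 4 to 7 transcripts, a larger part at each stage. At loci of 4 to 7 transcripts the median shares were higher, 95.9%, 51.5% and 97.6% over the stages, and again lowest at E60. The leader's share was lowest at E60 at 345 of 425 loci (81.2%). That course was not particular to loci with many transcripts, since the percentage was 84.5% at loci of 4 to 7.

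The effective number of transcripts, the count of equally abundant transcripts that would give the same sum of squared shares, had medians of 1.66, 3.81 and 1.43 over the stages. It was highest at E60 at 367 of 425 loci (86.4%), a share close to the 86.8% of loci of 4 to 7 transcripts and the 81.8% of all loci of 2 or more. To reach 90% of the locus sum, a median of 2, 5 and 2 transcripts was needed.

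The overlap of 2 stages, the sum over transcripts of the smaller of the 2 shares, is 0 where no transcript is shared and 1 where all shares are equal. Its median was 0.105 between E50 and E60 (quartiles 0.0185 and 0.254), 0.0965 between E60 and E70 (0.0177 and 0.250) and 0.707 between E50 and E70 (0.356 and 0.905). An overlap under 0.1 was found at 208, 216 and 66 loci in these comparisons, and an overlap of at least 0.5 at 37, 38 and 279. E50 and E70 thus overlapped more with each other than either did with E60. All 3 medians were below those of all loci of 2 or more transcripts, which were 0.262, 0.256 and 0.917, and those of loci of 4 to 7, which were 0.167, 0.167 and 0.847. With sums of at least 10 FPKM at every stage the medians were 0.0772, 0.0845 and 0.767 at loci of 8 or more and 0.0684, 0.0886 and 0.925 at loci of 4 to 7. The order was then reversed between E50 and E60, and the medians between E60 and E70 were close. When only transcripts above 0 at all stages were used, which left 328 loci and fewer candidates at each, the medians were 0.520, 0.480 and 0.875, the leader differed at 60.7% of loci between E50 and E60 and at 61.9% between E60 and E70, and 29.9% of loci kept their leader. This filter removes the transcripts whose detection differs between stages, so higher overlaps and fewer changes of leader follow in part from it.

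The summed FPKM of a locus had a median of 230 FPKM at E50, with quartiles of 31.5 and 1012. The E60 median was 63.9 (35.3 and 156), and the E70 median 472 (53.0 and 2568). On log2(summed FPKM + 1), with a 2-fold threshold, the sum was lower at E60 than at E50 at 226 of 430 loci (52.6%) against 17.1% of all loci, and higher at 109 (25.3%) against 48.9%. From E60 to E70 it was higher at 275 loci (64.0%) against 17.4% and lower at 87 (20.2%) against 49.0%. Between E50 and E70 it was higher at E70 at 177 loci (41.2%) against 15.0% and lower at 69 (16.0%) against 14.5%. The sum was lowest at E60 at 264 of 425 loci (62.1%) against 34.4% of all loci, and highest at E60 at 105 (24.7%) against 51.3%. Many loci of the whole table were near 0, with a median sum of 0.521 FPKM at E50, and a comparison among loci with higher sums is given below. The sums of E50 and E70 carry the limit on inflated values given above.

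These directions were read against the shift of the whole table. The median log2 difference of E60 from E50 was -1.24 at the 430 loci and 0.89 over all loci, and that of E70 from E60 was 2.29 and -0.89. Each stage was then scaled to the same median of locus sums, taken over loci with sums above 0 at all 3 stages. The median log2 differences after this scaling were -3.15 and 4.14 at the 430 loci and 0.07 and -0.13 over all loci. Quantile normalization gave -2.18 and 2.20 at the 430 loci and -0.43 and 0.42 over all loci, so that the whole table then moved the same way as these loci but less far. With median scaling 49 loci were higher and 318 lower at E60 than at E50, and 335 were higher and 46 lower at E70 than at E60. With quantile normalization the counts were 65 higher and 281 lower, then 290 higher and 53 lower. At the 430 loci the median direction was the same under each scaling for the comparisons with E60, while that of E70 against E50 was 0.71 as deposited, 0.65 after median scaling and -0.07 after quantile normalization.

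Whether loci with fewer transcripts also had lower sums at E60 depended on a floor for the sums. Among loci with sums of at least 10 FPKM at every stage, the median log2 difference of E60 from E50 was -1.80 at loci of 4 to 7 transcripts (63.2% lower, and 203 of 1685 higher) and -1.68 at loci of 8 or more (61.8% lower, and 43 of 351 higher), and the sum was lowest at E60 at 71.5% and 74.1%. This floor leaves out loci that were low at E50 or E70, which can hardly fall. Without it, loci of 4 to 7 had a median of 0.83 (35.2% lower, 48.7% higher) and a median E50 sum of 19.7 FPKM, and loci of exactly 7 had -0.51 (46.5% lower, 33.0% higher). Among the 430 loci, the transcripts of 1000 FPKM or more were mostly found at E50 and E70. Such transcripts numbered 153, 17 and 218 over the stages, or 295 at any stage, lying at 168 loci. Loci of 4 to 7 had 543, 120 and 853 of their 17695 transcripts at this level, again mostly at E50 and E70. Transcripts that exceeded 1000 FPKM at any stage were then left out. Of the 430 loci, 155 were lower and 155 higher at E60 than at E50, and 209 were higher and 117 lower at E70 than at E60. This step removes mainly values of E50 and E70, and the excess of lower sums at E60 over E50 was not seen after it. The 10 most abundant transcripts of each stage made up 70.7%, 73.6% and 61.3% of the summed FPKM of the 430 loci, which was itself 9.98%, 8.97% and 4.87% of the whole table.

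A change of leader did not need a change of the sum. The sums of E50 and E60 were within 2-fold of each other at 95 loci, and 81 of these had another leader. From E60 to E70, 62 of 68 such loci had another leader, and between E50 and E70, 51 of 182. Loci of 4 to 7 transcripts were similar, with 493 of 591, 393 of 476 and 373 of 1465 in the same order.

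The locus with the most transcripts was scaffold 104 (13519490 to 13765147), with 23. Its summed FPKM was 3404, 486 and 8734 over the stages, which are given in this order from here on. The leader of E50 and E70, a transcript of the study's list of long intergenic non-coding RNAs (lincRNAs), had 1783, 36.3 and 6649 FPKM, or 52.4%, 7.47% and 76.1% of the locus. At E60 this transcript gave way to several of similar level, led by a transcript with 605, 99.9 and 0 FPKM (20.5% of the locus at E60) and followed by others with 8.98, 89.7 and 13.5, with 0.514, 79.7 and 21.4 and with 0, 67.3 and 0 FPKM. A pair of its transcripts had equal values at every stage, 0.582, 3.64 and 0.310 FPKM.

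The next loci by number were scaffold 66 (5721348 to 5997139) and scaffold 1634 (275693 to 477379), with 21 transcripts each, and their sums moved in opposite directions from E50 to E60 and both fell from E60 to E70. At the former the sum was 20786, 126 and 23.4 FPKM, and its E50 leader had 17413 FPKM at E50 and was listed at 0 afterwards, with a status of failed fit or too little data. The E60 leader of that locus, with the same kind of status, had 2306, 85.2 and 0 FPKM and held 67.4% of the locus at E60, and the E70 leader had 32.6, 0 and 18.6. At the latter the sum was 16.8, 187 and 13.7 FPKM, all 21 transcripts were above 0 at E60, and the E60 leader, a transcript of the lincRNA list, had 2.78, 39.5 and 2.03. No transcript dominated the latter locus at E60, where its leader held 21.1%.

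At the other 3 loci with the most transcripts the leader held between 26.0% and 31.0% at E60. Scaffold 402 (181159 to 525262), with 20 transcripts, had sums of 1337, 227 and 978 FPKM. Its leader at E50 and E70 had 642, 33.0 and 352 FPKM, the next at E50 had 438, 0 and 119, the next at E70 had 194, 0 and 341, and the E60 leader had 58.8 FPKM at E60 and was listed at 0 at E50 and E70. Scaffold 2640 (46616 to 252247), with 19, had sums of 23.5, 134 and 39.2 and a leader at each stage with 33.6%, 31.0% and 46.9% of the locus. Its E60 leader had 0.730, 41.4 and 0 FPKM, and the E50 and E70 leaders stood at 0.679 and 0.336 FPKM at E60. Scaffold 1026 (351898 to 473677), with 18, kept its leader, which had 34.6, 36.6 and 39.7 FPKM. The level of that leader hardly moved while its share went from 84.3% to 28.5% and back to 76.2%, and 17 transcripts were above 0 at E60 against 7 and 6.

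The 6 loci of highest mean log2 sum over the stages included values that carry little weight on their own. All 6 held transcripts with a status of failed fit or too little data, and this held for the E50 leader of each. Scaffold 11 (9488932 to 9635057) had the highest transcript value of the 430 loci, a leader with 956584, 0 and 332118 FPKM, whose rows in the deposited table differed. At E60 the lead passed to a transcript with 19.8, 83.0 and 17.8 FPKM, and the locus sum was 114. The neighbouring interval, scaffold 11 (9652177 to 9692120), had sums of 396042, 2805 and 125305 FPKM, with an E50 leader at 240331, 0 and 171 whose rows differed. Its E70 leader had 68331, 135 and 58007 FPKM. At E60 that locus had 6 transcripts between 375 and 494 FPKM, so that the leader held only 17.6%.

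Scaffold 325 (2682036 to 2698797), with 17 transcripts over 16762 bp, was the highest by mean log2 sum and far above the other 5 at E60. Its sums were 796660, 182180 and 170425 FPKM. The leader of E50 and E60 had 442438, 127530 and 0 FPKM, and the E70 leader had 92999, 11618 and 114943. The former was listed at 0 at E70, and both carried a status of failed fit or too little data.

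At the other 3 loci of highest mean log2 sum the E50 leader was at 0 at E60. Scaffold 671 (2053246 to 2117926) had a leader with 176882, 0 and 289662 FPKM, whose rows differed at E70, the other value being 0. At E60 the lead there went to a transcript of the lincRNA list with 0, 77.6 and 7261. Scaffold 332 (12448467 to 12503330) had 4 transcripts between 32119 and 462853 FPKM at E50, and all 4 were listed at 0 at E60 and E70. Its E70 leader had 23871, 0 and 114864 FPKM, and its E60 sum was 45.6. Scaffold 137 (9546241 to 9669651) went from a leader with 9899, 0 and 0 FPKM at E50 to one with 0, 3702 and 24979 that led at E60 and E70. The rows of the latter transcript differed, the other value being 0, and it too carried a status of failed fit or too little data. This last locus was the only one of the 6 at which E60 and E70 alone shared the leader.

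Of the 351 loci with a sum of at least 10 FPKM at every stage, 22 kept their leader, and the highest of these by the leader's lowest share are given next. At scaffold 296 (3317590 to 3438246) a lincRNA of the list had 2630, 338 and 18715 FPKM, or 99.7%, 81.5% and 99.6% of the locus. At scaffold 1050 (90108 to 252019) the kept leader had 540, 349 and 1647 FPKM, or 98.4%, 77.1% and 94.9%. At scaffold 75 (322740 to 400882) it was again a listed lincRNA, with 13143, 139 and 2571 FPKM and 99.0%, 77.0% and 89.5%. Even at these loci the share of the leader was lowest at E60.

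Scaffold 787 (2502654 to 2518907) had a leader with 245, 184 and 1589 FPKM that held 79.2%, 75.9% and 91.7% of the locus. Scaffold 932 (4799915 to 4914469) had one with 214, 50.4 and 93.6 FPKM and 98.9%, 75.2% and 98.9%. Both were again lowest in share at E60. Scaffold 834 (250159 to 263866) was the exception, since the listed lincRNA TCONS_01102902 held 68.3%, 74.8% and 98.6%, with 17916, 493 and 14287 FPKM. There a transcript with 8120 FPKM at E50 and 0 at E60 and E70, of failed or too little data, took 30.9% of the E50 sum.

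The leader of E50 and E70 was the same at 211 of the 351 loci, and the clearest replacements at E60 were found among these. At scaffold 337 (642668 to 657562) the leader had 268, 0 and 4142 FPKM and held nearly the whole locus at E50 and E70, while at E60 the other 7 transcripts, all but 1 of them at 0 before and after, shared 153 FPKM. The highest of those 7 had 0, 63.4 and 0 FPKM and the next 0, 44.5 and 0. The overlap of E60 with the mean shares of E50 and E70 was 0.000209. No transcript of this locus was thus measured at an appreciable level both at E60 and at another stage.

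The same exchange was seen at scaffold 16 (425014 to 667337), where the leader had 10582, 0 and 145676 FPKM and the E60 leader 0, 16.6 and 0. At scaffold 769 (930210 to 938587), which spans 8378 bp, the leader had 2518, 0 and 16579 FPKM, with rows that differed and a status of failed fit or too little data, and the E60 leader 0, 40.4 and 0. At scaffold 204 (424427 to 514570) the leader had 1122, 0 and 400 FPKM, and 6 other transcripts of 1.62 to 2.93 FPKM made up the whole E60 sum of 14.2. In each case a transcript of high value at E50 and E70 was listed at 0 at E60, and transcripts of low value took its place. These loci were chosen by their small overlap of E60 with E50 and E70, so this exchange follows largely from the choice.

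Scaffold 349 (916417 to 955723) had a leader with 1070, 0 and 1657 FPKM and an E60 leader with 0, 37.6 and 0. Scaffold 955 (1801781 to 1895513) had a leader with 5437, 0 and 33200 FPKM and an E60 leader with 2.60, 24.5 and 1.12. In the last of these the E60 leader was also above 0 at the other stages but took under 1% of the locus there.

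Among loci with sums of at least 1 FPKM at E50 and E60, the sum rose most from E50 to E60 at scaffold 55 (5502324 to 5617749), from 2.60 to 189 FPKM, a log2 difference of 5.73, and stood at 1.40 at E70. Its E60 leader had 0, 114 and 0.768 FPKM. Scaffold 1544 (998449 to 1123247) had sums of 1.46, 116 and 0 FPKM, with 10 of 11 transcripts above 0 at E60. Scaffold 236 (1701521 to 2007137) had sums of 3.36, 176 and 0.276, and its 9 transcripts, all above 0 at E60, lay between 10.7 and 32.1 FPKM there. Scaffold 69 (4069889 to 4240800) had sums of 1.01, 77.3 and 1.36, and 3 of its transcripts were tied at 0.335 FPKM at E50 and at 0.452 at E70. At E60 most transcripts of these 4 loci were above 0, but the leader still held 60.0% at scaffold 55 and 41.6% at scaffold 1544, against 18.2% and 18.7% at scaffolds 236 and 69.

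The 4 largest falls from E50 to E60 among the same loci started from E50 sums of 22105 FPKM or more, though other loci with such sums fell less, as scaffold 325 (2682036 to 2698797) with a log2 difference of -2.13. Scaffold 332 (12448467 to 12503330) and scaffold 11 (9488932 to 9635057), described above, had log2 differences of -14.42 and -13.20. Scaffold 76 (4605 to 123913) had sums of 69347, 22.2 and 7167 FPKM. Its leader at E50 and E70 had 55476, 0 and 6682, with rows that differed and a status of failed fit or too little data. Scaffold 324 (75287 to 179699) had sums of 22105, 8.85 and 3353, with an E50 leader at 21951, 0 and 0 FPKM and an E70 leader at 151, 0 and 3343. In all 4 loci the E50 leader was listed at 0 at E60, so the size of each fall rests on the transcripts that were left.

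At some loci the sum stayed level while the leaders changed, and these show the exchange without a change of the total. Scaffold 29 (2550233 to 2625704) had sums of 22.1, 20.8 and 19.6 FPKM. Its leader at E50 and E70 had 15.3, 0 and 18.5 FPKM, and the E60 leader 0, 7.63 and 0.414. Of the E60 sum of this locus, 5.23 FPKM (25.1%) came from another transcript with a status of failed fit or too little data. The rows of that transcript differed at E60, the other value being 0, so the level sum there rests in part on the choice of the larger value. Scaffold 681 (3501726 to 3563424) had sums of 223, 174 and 175, and the lead passed from a listed lincRNA with 128, 0.240 and 83.7 FPKM to a transcript with 0, 70.5 and 0. The former returned to the lead at E70 at both loci.

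Scaffold 2497 (1425068 to 1560539) had sums of 86.7, 66.9 and 81.6 FPKM, a leader at E50 and E70 with 60.7, 3.34 and 51.8 and an E60 leader with 15.9, 19.2 and 26.8. That E60 leader was present at every stage and took the lead at E60 when the other fell. Scaffold 1115 (1230225 to 1281495) had sums of 34.3, 28.5 and 29.9 and a different leader at each stage, a listed lincRNA with 19.4, 0.860 and 9.02 FPKM at E50, a transcript with 1.25, 7.50 and 0 at E60 and another with 13.0, 4.57 and 20.9 at E70.

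The leaders of E50 and E70 differed at 140 of the 351 loci. The smallest overlap between these stages, 4.18e-05, was at scaffold 631 (121227 to 179078), whose sum fell from 62884 to 7629 and 485 FPKM. A listed lincRNA there had 62881, 5368 and 0 FPKM, and the E70 leader had 0.366, 549 and 302. At E60 this locus held the transcripts of both other stages, with an overlap of 0.704 with E50 and 0.292 with E70. Scaffold 436 (5123838 to 5142613) was similar in part, with an E50 leader at 2423, 93.4 and 0 FPKM, an E60 leader at 0, 97.4 and 0 and an E70 leader at 0, 2.37 and 1323. Its E50 and E70 leaders carried a status of failed fit or too little data, and the rows of the latter differed, the other value being 0.

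The remaining 2 of this group were governed by a transcript found at E70 only. At scaffold 834 (300086 to 330540) that transcript had 0, 0 and 707558 FPKM, the highest E70 value of the 430 loci, while the E50 leader had 226, 0 and 366. At scaffold 64 (4591300 to 4710743) it had 0, 0 and 313991 FPKM, while the E50 leader had 295, 0.266 and 220. The E50 leaders of both loci were thus still present at E70, within 2-fold of their E50 values.

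The sum was 0 at a stage at 5 of the 430 loci, which left 425 for comparisons over all stages. Scaffold 14 (3802237 to 3847970) had sums of 291, 34.2 and 0 FPKM, and scaffold 1544, given above, was at 0 at E70 too. Scaffold 407 (1778277 to 1791741) had 0, 9.92 and 0, scaffold 93 (17152414 to 17504259) 0, 4.98 and 0.430, and scaffold 951 (249116 to 255457) 0, 23.3 and 767 FPKM. Each of the 5 had FPKM above 0 at E60, and at the last the E60 sum was spread over 8 transcripts while 1 other transcript made up the whole E70 sum.

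Of the 450 transcripts in the study's list of lincRNAs, 109 belonged to these loci, at 97 of them (22.6%, against 2.27% of all loci). They were 2.66% of the transcripts of these loci, against 0.987% of all transcripts. Their median FPKM was 78.4, 2.32 and 74.6 over the stages, and their median share of the locus was 22.8%, 2.91% and 9.38%. The number that led their locus was 43, 18 and 24. The study kept these 450 transcripts as differentially expressed between stages of the same libraries. Their share at these loci and their course over the stages therefore do not describe lincRNAs in general, and are not independent evidence.

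The last of the 4 loci chosen for their lincRNA share was scaffold 391 (11932 to 150519). A listed lincRNA there had 1191, 15.0 and 1168 FPKM and led at every stage with 99.7%, 40.7% and 80.2%. In the study's list of lincRNAs and their neighbouring genes, 2 entries fell on these loci. TCONS_01102902, described above, is paired there with SAMD4B, an RNA-binding regulator of translation and mRNA decay, and TCONS_01082456 with RBM5, an RNA-binding regulator of splicing. TCONS_01082456 had 22.3, 0.568 and 37.3 FPKM at scaffold 799 (596665 to 629121), or 3.03%, 0.0815% and 0.488% of its locus. The lead at that locus was held at E50 and E60 by a transcript with 447, 356 and 987 FPKM and at E70 by one with 0, 68.2 and 5474, the former with a status of failed fit or too little data.

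A status of failed fit or too little data was recorded for 261 transcripts at 163 of the 430 loci (37.9%). Per transcript the share was 6.38%, against 5.50% at loci of 4 to 7 and 4.27% of all transcripts. Of the 295 transcripts of 1000 FPKM or more at a stage, 91 carried it. Without these 163 loci the leader differed at 90.5% of loci between E50 and E60, 92.0% between E60 and E70 and 36.6% between E50 and E70.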

How the data were processed

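The authors aligned the reads with TopHat to the WZSP genome, assembled transcripts with Cufflinks (version 1.0.3 in the submitters' processing notes, while the paper names a later version) and compared the stages with Cuffdiff. They deposited 1 table of transcripts with an FPKM value for each stage of a comparison. Its fold change, p-value and q-value columns hold the authors' own comparisons and were not used, and its status column served only as a mark of quality. The paper describes the cDNA libraries as normalised, without details in the sources used here. If the cDNA was normalised chemically, differences in FPKM between transcripts would be compressed, and the shares and sums with them. The table holds no read counts or transcript lengths, so the number of fragments behind a value is not known from it. The reads per library that the paper states were not used here.

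Values were taken by stage name. Where the rows of a transcript differed for a stage (104 of the 4091 transcripts, 75 values at E60 and 64 at E70, the smaller always 0), the larger was used. Transcripts were grouped by locus, and starts were converted to count from 1. Leaders tied at 2 loci at E50 and 1 at E70 were resolved by the order of transcript identifiers. Changes used a pseudocount of 1 and a threshold of 2-fold. Shares do not change when all values of a stage are multiplied by 1 factor, as in median scaling. Quantile normalization can change them and was run for sums only. Intervals are Wilson 95%, for counting over loci only.

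The loci named are, by rule, the 6 with the most transcripts, the 6 of highest mean log2 sum, the 6 with the highest lowest share of a kept leader (this and the other rules on leaders use sums of at least 10 FPKM at every stage), the 6 with the same E50 and E70 leader and the smallest overlap of E60 with these stages, the 4 largest rises and the 4 largest falls from E50 to E60 among sums of at least 1 FPKM at both, the 4 with the steadiest sum and a changing leader, the 4 with the smallest overlap of E50 and E70 among differing leaders, those on the study's list of lincRNA neighbours, and the 4 of highest lincRNA share. The 5 loci with a sum of 0 at a stage were added after their values were seen. The members and lists were chosen with earlier results of these data known. The comparison with loci of 4 to 7 transcripts at sums of at least 10 FPKM was chosen after values of these loci were seen. Alternatives are given in the closing section. The computations were tested on simulated data and used pandas 2.3.3, scipy 1.17.1 and numpy 2.4.6 under Python 3.11.15.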

Additional observations from a re-analysis of the deposited data

How the results depend on the processing

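The counts and medians were recomputed under the alternatives, which gave 94 values, of which 71 stayed within the Wilson interval of a share or within 1.5 times a count or median. With loci of 6 or more transcripts the leader differed at 86.0% of loci between E50 and E60 and 39.3% between E50 and E70, and with 12 or more at 92.3%, 92.3% (E60 and E70) and 51.9%. Where the leader had at least 2 times the FPKM of the next transcript, it differed at 80.5% of 154 loci between E60 and E70. With this margin it differed at 29.3% of 242 loci between E50 and E70, and 9.24% of 119 kept it. Among transcripts above 0 at all stages, at 328 loci, it differed at 60.7%, 61.9% and 26.5% in the 3 comparisons, 29.9% kept it, the median share of the leader at E60 was 64.7%, and the median overlap was 0.520 (E50, E60) and 0.480 (E60, E70). Without loci of failed or too little data it differed at 92.0% between E60 and E70 and 36.6% between E50 and E70. Loci higher at E60 than E50 and loci lower at E70 than E60 numbered 49 and 46 with median scaling and 65 and 53 with quantile normalization, out of 430 loci, and 50 of 363 and 33 of 370 with sums of at least 10 FPKM at both stages. Without transcripts above 1000 FPKM, 155 loci were higher and 155 lower at E60 than at E50, against 109 and 226 in the main setting. Each count stayed within 1.5 times its main value and is among the 71, although the excess of lower sums was lost. The smaller of differing values, run for leaders, shares and overlaps, and a pseudocount of 0.1, run for the sums, left those results within these limits. Beyond the settings that change which values are used, the cause of these differences was not tested. No replicate could be left out, since the table has 1 value per stage, and with no counts in the table no limit from depth was computed.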
